A study of Mus musculus with 2 samples.

Results

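The 10 genes described here encode proteins of the fibrous sheath of the sperm tail and the protein kinase A (PKA) machinery that docks on it. They were Akap3, Akap4, Fsip1, Fsip2, Ropn1, Ropn1l, Spa17, Prkaca, Prkar1a and Prkar2a, chosen by symbol, and each matched 1 row of the deposited UMI matrix, out of 51868 rows that include 50686 genes beside repeat sequences. Both animals were untreated wild-type C57Bl/6J Crl mice of 8 weeks, and per the study's methods they were littermates, so there was a single group and no treatment or mutant to compare. A small piece of each whole testis was dissociated and passed through a strainer that also held back somatic cells. The comparisons are therefore between germ cell stages within the same animals.

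The fibrous sheath surrounds the axoneme along the principal piece of the sperm tail, and it carries both glycolytic enzymes and signalling proteins. PKA is held there by A-kinase anchoring proteins (AKAPs), which bind the dimerised ends of the regulatory subunits of the enzyme. When cyclic AMP binds these subunits, the catalytic subunits are released and phosphorylate tail proteins, a step needed for sperm motility and capacitation. Ropporins and Spa17 have a docking domain like that of the type II regulatory subunit and bind the same anchoring helices.

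The 2552 cells comprised 1237 cells of mouse 1 with 27450497 unique molecular identifiers (UMIs) and 1315 cells of mouse 2 with 30302332 UMIs, with medians of 17871 and 19184 UMIs per cell. No barcode was shared between the libraries. Cells were clustered without the 10 genes, and 2532 of them fell into 6 large germ cell clusters, numbered here by their median pseudotime, an ordering of cells by gradual change in expression. Cluster 1 was early spermatocyte-like (162 cells), cluster 2 pachytene or later spermatocyte-like (531 cells) and cluster 4 round spermatid-like (433 cells). Clusters 5 and 6 were earlier and later elongating or condensing spermatid-like (212 and 490 cells). Beside 11 of 12 elongating or condensing markers, cluster 5 also had raised levels of 8 of 13 round spermatid markers, against 0 of 13 in cluster 6. Cluster 3 (704 cells) had raised levels of only 3 of 13 round spermatid markers and stays unnamed; Ssxb1 and Ssxb2 led it. The remaining 20 cells were Sertoli-like, Leydig-like or spermatogonium-like, the last with as many early spermatocyte as spermatogonium markers. Levels are given as CPM, the UMIs of a gene per 1000000 UMIs of the summed cells. A 3' UMI count has no length term and capture differs between genes, so levels were compared between clusters for each gene and not between genes.

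Depth and composition of the cells changed along the clusters, and these values move with every level given below. Mean UMIs per cell were 33750.5 in mouse 1 and 33957.7 in mouse 2 in cluster 2, and 18998 and 22037 in cluster 3. They were 22604 and 24891 in cluster 5, and 12476 and 13562 in cluster 6. CPM and fold changes over these steps are relative to the other transcripts of the cells. Protamine and transition protein genes took 8.18% and 7.003% of all UMIs in cluster 5 and 19.1% and 15.8% in cluster 6, but under 1% in clusters 1 to 4. Scaling factors of the trimmed mean of M-values (TMM) ran from 1.67 and 1.501 in cluster 1 to 0.497 and 0.482 in cluster 6, and library totals without these factors moved the log2 fold changes by -0.25, -0.05, -0.25, -0.52 and -0.58 over the 5 steps from cluster to cluster. CPM are on library totals, so the cluster or bin of a gene's highest level is that in CPM unless stated. Adding up the TMM steps gave another highest cluster for Akap3 (6 in place of 5), Fsip2 (4 in place of 3) and Ropn1l (5 in place of 2), and the same one for the other 7 genes.

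Akap3 and Akap4, the major structural proteins and PKA anchors of the sheath, were low in both spermatocyte clusters and reached their highest levels in elongating or condensing spermatids. Akap3 lies on the plus strand at chr6:126853098-126874308 and Akap4 on the plus strand of the X chromosome at chrX:7067519-7078609 (GRCm38, GENCODE M21). The 250 bases before a RefSeq start of each gene are shown because the genes share a stretch of letters there. Akap4 has another start window as well, chrX:7067960-7068259, which lacks that stretch and shares at most 10 letters in a row with Akap3. In Akap3 the window is chr6:126852848-126853097 and in Akap4 chrX:7067265-7067514 (GRCm38.p6, both on the plus strand), and the capitals mark the longest run of identical letters.
Akap3: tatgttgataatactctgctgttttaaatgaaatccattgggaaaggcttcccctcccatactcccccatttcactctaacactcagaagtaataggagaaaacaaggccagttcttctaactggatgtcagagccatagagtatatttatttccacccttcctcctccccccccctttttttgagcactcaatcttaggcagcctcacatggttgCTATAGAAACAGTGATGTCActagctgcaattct
Akap4: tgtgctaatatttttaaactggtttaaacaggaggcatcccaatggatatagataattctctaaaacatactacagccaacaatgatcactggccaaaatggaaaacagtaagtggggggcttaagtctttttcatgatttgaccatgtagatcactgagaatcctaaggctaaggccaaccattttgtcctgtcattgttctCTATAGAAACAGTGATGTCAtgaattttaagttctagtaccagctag
The run of 20 letters lay 34 to 15 bases before the start in Akap3 and 47 to 28 bases before it in Akap4, on the same strand. Among the 32851 RefSeq windows of 300 bases, 250 before to 50 after a start, the same 20 letters on either strand were in 2 windows (0.00609%), those of Akap3 and Akap4. Over 118 pairs of windows of different members, the next longest shared run had 11 letters. The run ends in TGATGTCA, which was in 1189 windows (3.62%) on either strand and in no other member's window. The run was noticed after the sequences had been read, and it is a match of letters whose part in the levels was not tested.

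In mouse 1 Akap3 had 76.8, 27.7, 306, 563, 960 and 640 CPM in clusters 1 to 6. In mouse 2 the values were 39.2, 27.7, 351, 628, 978 and 698 CPM. From cluster 3 on, the values of the mice lay closer together than those of neighbouring clusters. Akap3 rose 3.62 ± 0.18 (log2 fold change ± SE) from cluster 2 to cluster 3, by edgeR's quasi-likelihood test with Benjamini-Hochberg adjustment over all rows tested (adjusted p = 5.53e-14). It rose by a further 1.11 ± 0.16 into cluster 4 (edgeR, adjusted p = 4.24e-06) and 1.22 ± 0.16 into cluster 5 (edgeR, adjusted p = 1.05e-06). From cluster 5 to cluster 6 the direction depended on scaling, with 0.05 ± 0.16 under TMM (edgeR, adjusted p = 0.848) and -0.54 with library totals (edgeR, adjusted p = 0.00993). Per cell, Akap3 fell over this step in both mice, from 21.7 to 7.98 UMIs in mouse 1 and from 24.4 to 9.46 UMIs in mouse 2. Its share of cells with a UMI went from all 212 cells in cluster 5 to 79.0% of 490 cells in cluster 6 (exact 95% binomial interval 75.1 to 82.5%), and after thinning every cell to 5000 UMIs from 99.5% to 68.0%.

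Akap4 had 76.8, 40.0, 235, 609, 1098 and 1868 CPM in clusters 1 to 6 of mouse 1, and 61.5, 42.7, 265, 642, 1147 and 2069 CPM in mouse 2. It rose at each of the 4 steps from cluster 2 to cluster 6, by 2.66 ± 0.15, 1.58 ± 0.14, 1.36 ± 0.14 and 1.40 ± 0.14 (log2, edgeR, all adjusted p at most 3.06e-08). Counted as UMIs per cell, Akap4 had 24.8 and 28.6 UMIs in cluster 5 and 23.3 and 28.1 UMIs in cluster 6, so the last rise is one relative to the other transcripts of the cell. All 490 cells of cluster 6 had at least 1 Akap4 UMI, before and after thinning.

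Both anchors were also called lower in cluster 2 than in cluster 1, by -0.70 ± 0.21 for Akap3 (edgeR, adjusted p = 0.00627) and -0.46 ± 0.17 for Akap4 (edgeR, adjusted p = 0.0258). Without the 25 cells called as doublets, 3 of them in cluster 1, the values were -0.05 for each (edgeR, adjusted p = 0.863 and 0.842), and both calls were lost, as they were after thinning (edgeR, adjusted p = 0.430 and 0.427). Free RNA in the droplets was gauged from a transcript of later cells. Prm1, a protamine gene of condensing spermatids, had 1.57% of its cluster 6 level in cluster 2 of both mice, and 3.23% and 2.02% in cluster 1. Akap4 had 2.14% and 2.06% of its highest level in cluster 2, and 4.11% and 2.97% in cluster 1. Akap3 had 2.89% and 2.83% in cluster 2, and 8.00% and 4.01% in cluster 1. Akap4 UMIs were also found in 3 of 5 Leydig-like cells (60.0%) and 4 of 7 Sertoli-like cells (57.1%), at median depths of 9856 and 12039 UMIs, against 71.0% of cluster 2 cells at 20769 UMIs. After thinning the shares were 60.0%, 28.6% and 23.0% in the same order. The exact 95% binomial intervals of the first 2 were 14.7 to 94.7% and 3.67 to 71.0%, so these few cells set no firm background. How much of the Akap4 in the spermatocyte clusters was free RNA was not tested, and its shares there were not read as expression.

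Fsip1 and Fsip2 encode proteins that bind the sheath or its anchors, and both were highest in clusters 3 and 4 and lowest in cluster 6. Fsip1 lies on the minus strand at chr2:118130424-118256966 and Fsip2 on the plus strand at chr2:82943634-83008937. Fsip1 had 47.7, 54.3, 350, 381, 48.9 and 7.07 CPM in clusters 1 to 6 of mouse 1, and 33.9, 49.0, 368, 388, 40.2 and 11.5 CPM in mouse 2. It rose 2.85 ± 0.15 from cluster 2 to cluster 3 (edgeR, adjusted p = 1.41e-13) and fell by 2.60 ± 0.16 from cluster 4 to cluster 5 (log2, edgeR, adjusted p = 7.15e-12). Its smaller rise from cluster 3 to cluster 4 was 0.35 ± 0.14 (edgeR, adjusted p = 0.0427), and the call was lost with library totals (0.10) and without the filter on low counts (0.29). The small rise from cluster 1 to cluster 2, 0.66 ± 0.18 (edgeR, adjusted p = 0.00412), was lost with other size factors, with DESeq2, after thinning and with library totals.

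Fsip2 differed from Fsip1 at the start of the ordering. It had 284, 241, 382, 357, 63.5 and 11.8 CPM in mouse 1 and 273, 233, 396, 396, 55.8 and 15.2 CPM in mouse 2. Levels in the spermatocyte clusters were thus 58.9 to 74.3% of the highest level of the same mouse. That was in cluster 3 in mouse 1 and in cluster 4 in mouse 2. Fsip1 had 8.72 to 14.3% of its cluster 4 level in the spermatocyte clusters. Fsip2 rose 0.77 ± 0.13 into cluster 3 (edgeR, adjusted p = 1.58e-05), and then fell by 2.14 ± 0.14 into cluster 5 and by 1.56 ± 0.19 into cluster 6 (log2, edgeR, adjusted p = 1.97e-11 and 3.91e-07). In UMIs per cell Fsip2 had 8.14 and 7.92 in cluster 2 and 7.25 and 8.72 in cluster 3. The rise into cluster 3 was thus not seen per cell in mouse 1. Cells with an Fsip2 UMI made up 98.6% of cluster 4, 48.6% of cluster 5 and 14.3% of cluster 6, and 83.8, 24.5 and 6.73% after thinning. Of the Sertoli-like cells 4 of 7 had one (57.1%, and 42.9% after thinning). So did 1 of 8 spermatogonium-like cells (12.5%, before and after thinning). Of the Leydig-like cells 1 of 5 had one, and 0 of 5 after thinning. These are too few cells to set a background for the share in cluster 6.

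Ropn1, ropporin, is a sheath protein that binds AKAP3 and rhophilin, and its course over the clusters was close to that of Akap3. It lies on the plus strand at chr16:34649921-34678618. In mouse 1 it had 76.8, 42.9, 531, 1425, 1872 and 1217 CPM, and in mouse 2 it had 51.6, 42.03, 630, 1462, 2041 and 1240 CPM. The rise of 3.83 ± 0.17 into cluster 3 (log2, edgeR, adjusted p = 4.92e-15) was followed by rises of 1.57 ± 0.15 into cluster 4 and 0.96 ± 0.15 into cluster 5 (edgeR, adjusted p = 8.54e-09 and 8.33e-06). From cluster 5 to 6 the value was -0.08 ± 0.15 under TMM (edgeR, adjusted p = 0.699) and -0.67 with library totals (edgeR, adjusted p = 0.000361). Per cell, Ropn1 fell from 42.3 to 15.2 UMIs in mouse 1 and from 50.8 to 16.8 UMIs in mouse 2. Over the 20 bins of the ordering in both mice, 40 points in all, the Pearson correlation of log2(CPM + 10) was 0.978 between Ropn1 and Akap3 and 0.924 between Ropn1 and Akap4. The points share 2 libraries and neighbouring bins, so these values describe the shape of the curves only. The curves of Ropn1 and Akap3 parted late in the ordering. From bin 17 to bin 20 Akap3 fell from 897 to 325 CPM in mouse 1 and from 1175 to 236 CPM in mouse 2. Ropn1 fell less, from 1378 to 1087 CPM in mouse 1 and from 1612 to 1015 CPM in mouse 2.

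Ropn1l, the ropporin paralogue of the radial spokes and sheath, had nearly level CPM over the 4 middle clusters, where its highest cluster depended on scaling. It lies on the minus strand at chr15:31441211-31453737. Mouse 1 had 2041, 3339, 3277, 3238, 3180 and 948 CPM and mouse 2 had 2362, 3395, 3144, 3162, 3242 and 1020 CPM. The 4 middle clusters of both mice lay between 3144 and 3395 CPM, with cluster 1 below and cluster 6 far below them. It rose 0.87 ± 0.15 from cluster 1 to 2 (edgeR, adjusted p = 4.13e-05) and fell by 1.12 ± 0.15 from cluster 5 to 6 (log2, edgeR, adjusted p = 2.52e-06). A call higher in cluster 5 than in cluster 4, 0.53 ± 0.15 (edgeR, adjusted p = 0.00584) under TMM, was lost with library totals (0.0046, edgeR, adjusted p = 0.988) and without the filter on low counts (0.047, edgeR, adjusted p = 0.981). In CPM the gene was highest in cluster 2. In UMIs per cell it was not level, with 113 and 115 in cluster 2 of mouse 1 and mouse 2, its highest cluster. The values per cell were 62.3 and 69.3 in cluster 3, 75.5 and 73.9 in cluster 4, and 71.9 and 80.7 in cluster 5. With protamines and transition proteins left out it was highest in cluster 5, as it was under TMM, where the steps after cluster 2 were -0.01, 0.25 and 0.53 up to cluster 5.

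Spa17, sperm protein 17, was the only member to rise at all 5 steps under TMM scaling. It lies on the minus strand at chr9:37603290-37613722 and overlaps Siae on the other strand, which had 422 UMIs in all against 111657 for Spa17. It had 947, 1172, 1807, 2225, 2924 and 3875 CPM in mouse 1 and 1020, 1086, 1752, 2123, 2837 and 4153 CPM in mouse 2. The steps were 0.46 ± 0.15, 0.71 ± 0.15, 0.55 ± 0.15, 0.93 ± 0.15 and 1.07 ± 0.15 on the log2 scale (edgeR, adjusted p from 3.57e-06 to 0.0125). The first of these was not called with library totals (0.20), other size factors (0.16) or DESeq2 (0.15). In UMIs per cell Spa17 was highest in cluster 5, at 66.1 and 70.6, and had 48.3 and 56.3 in cluster 6. From cluster 2 to 3 its UMIs per cell went from 39.6 to 34.3 in mouse 1 and from 36.9 to 38.6 in mouse 2.

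**Figure D1:**
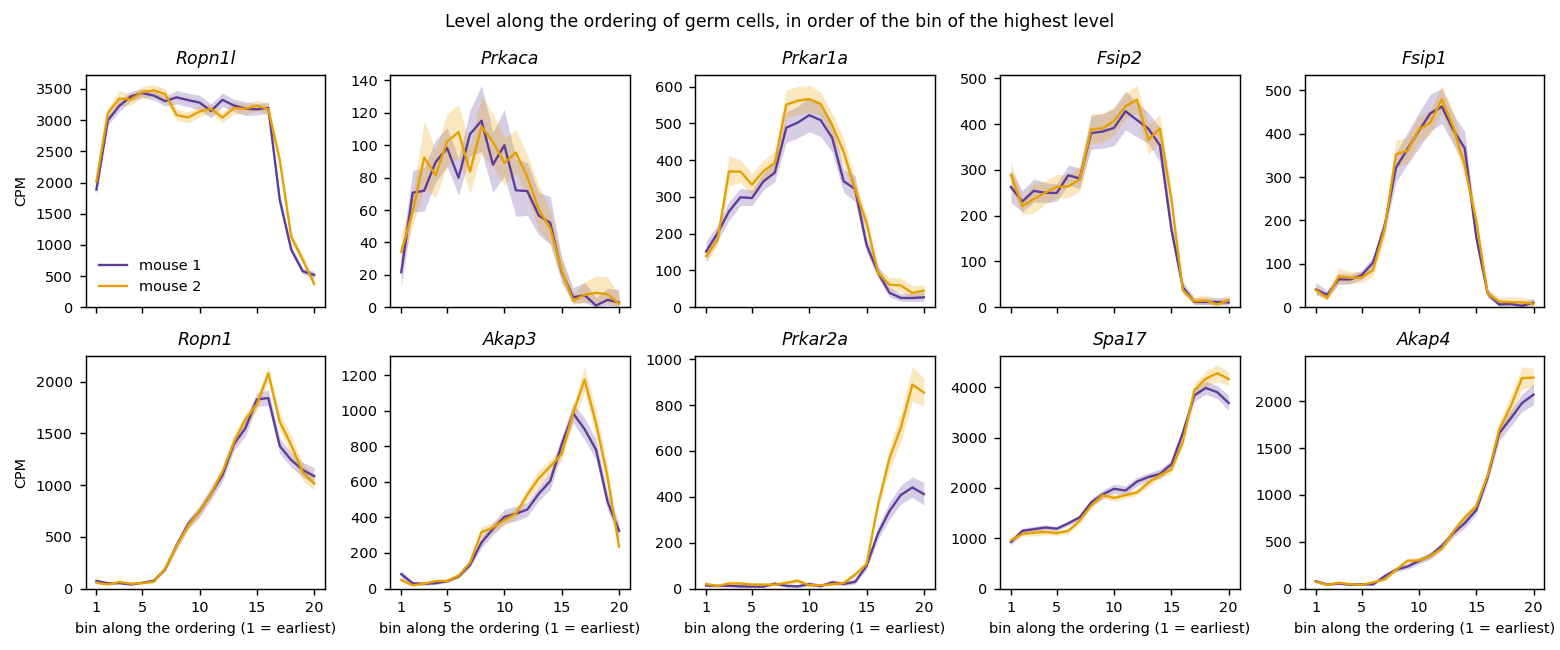
Level of each gene in CPM (vertical axis) over 20 bins of 126 to 127 germ cells along the ordering (horizontal axis), with 1 line per mouse and its exact 95% Poisson interval shaded. Ropn1l was highest in bin 5 and Akap4 in bin 20; the lines of the mice part mainly for Prkar2a, with 441 and 889 CPM in bin 19.

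Among the PKA subunits, the catalytic subunit and the type I regulatory subunit had their highest CPM in cluster 3, and the type II regulatory subunit had its highest CPM in cluster 6. For the catalytic subunit clusters 2 and 3 were not separated. Prkaca, the alpha catalytic subunit, lies on the plus strand at chr8:83972993-83996443. It had 28.1, 86.8, 96.2, 53.8, 8.94 and 3.83 CPM in mouse 1 and 40.9, 85.0, 99.5, 57.2, 4.09 and 7.78 CPM in mouse 2. It rose 1.502 ± 0.21 from cluster 1 to 2 (edgeR, adjusted p = 3.42e-06), and fell by 0.56 ± 0.18 into cluster 4 and by 2.64 ± 0.28 into cluster 5 (log2, edgeR, adjusted p = 0.0137 and 4.73e-08). The difference between clusters 3 and 2, 0.24 ± 0.17 (edgeR, adjusted p = 0.229), passed the threshold only with the mouse as a block (adjusted p = 0.0398). Per cell, Prkaca was highest in cluster 2, at 2.93 and 2.89 UMIs in mouse 1 and mouse 2, against 1.83 and 2.19 UMIs in cluster 3. In clusters 5 and 6 the gene rested on 12 to 23 UMIs per mouse, and no difference between them was detectable at this depth (edgeR, adjusted p = 0.390). Counts at the 3' end do not separate the somatic from the sperm form of Prkaca, which differ in their first exon.

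Prkar1a, the type I alpha regulatory subunit, lies on the plus strand at chr11:109649405-109669656. It had 169, 264, 504, 346, 99.8 and 29.8 CPM in mouse 1 and 150, 302, 544, 389, 107 and 51.8 CPM in mouse 2. It rose 1.10 ± 0.17 and 0.95 ± 0.16 over the first 2 steps (edgeR, adjusted p = 1.09e-05 and 1.68e-05), and fell by 1.31 ± 0.17 and 0.76 ± 0.19 over the last 2 (log2, edgeR, adjusted p = 8.50e-07 and 0.00243). Between clusters 3 and 4 it was -0.26 ± 0.16 and not called (edgeR, adjusted p = 0.197), with the mouse as a block -0.26 and called (adjusted p = 0.0269), and with library totals -0.51 and called (adjusted p = 0.00774). From cluster 2 to 3 Prkar1a went from 8.91 to 9.58 UMIs per cell in mouse 1 and from 10.25 to 11.99 in mouse 2. The rise into cluster 3 was thus mainly one relative to the other transcripts of the cell.

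Prkar2a, the type II alpha regulatory subunit, whose dimer is the classical ligand of AKAPs, lies on the plus strand at chr9:108689314-108750436. It had 12.2, 8.57, 17.5, 30.0, 207 and 398 CPM in mouse 1 and 16.1, 16.3, 21.3, 41.3, 312 and 761 CPM in mouse 2. Clusters 5 and 6 of each mouse lay above clusters 1 to 4 of both mice. The largest step was the one from cluster 4 to cluster 5, at 3.38 ± 0.28 (log2, edgeR, adjusted p = 7.34e-10), followed by 1.74 ± 0.25 into cluster 6 (edgeR, adjusted p = 6.00e-06). Counted as UMIs per cell, Prkar2a had 4.67 and 7.77 in cluster 5 and 4.97 and 10.3 in cluster 6 of mouse 1 and mouse 2. In mouse 1 the last rise was thus mainly one relative to the other transcripts of the cell. A rise of 1.13 ± 0.30 into cluster 4 was also called (edgeR, adjusted p = 0.00284), while that into cluster 3, 0.74 ± 0.31 (edgeR, adjusted p = 0.0408), was not called by DESeq2, after thinning, without doublets or with library totals. Cells with a UMI made up 22.0% and 32.4% of cluster 3 and 94.7% and 98.3% of cluster 5, at median depths of 18924.5 and 22484.5 UMIs. UMIs were also found in 3 of 7 Sertoli-like cells (42.9%), and in 0 of 5 Leydig-like and 0 of 8 spermatogonium-like cells, where the exact 95% binomial intervals reach up to 52.2% and 36.9%. These few cells set no firm background for the shares of cluster 3. After thinning, the shares were 7.55% and 10.1% in cluster 3 and 50% and 70.3% in cluster 5.

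Because both subunits were counted in the same cells, the share of Prkar2a among the UMIs of the 4 regulatory subunit genes (Prkar1a, Prkar1b, Prkar2a and Prkar2b) does not depend on the scaling. Capture can differ between the 4 genes, so the share was compared between clusters and is not the true proportion of the subunits. The share was 8.44, 3.91, 3.50, 8.77, 71.0 and 92.6% in clusters 1 to 6. The exact 95% binomial intervals were 7.93 to 9.66% in cluster 4, 68.9 to 72.99% in cluster 5 and 91.8 to 93.4% in cluster 6. Mouse 1 had 7.78, 65.8 and 92.0% in these clusters and mouse 2 had 9.38, 73.7 and 93.0%. Neither Prkar1b nor Prkar2b held more than 3.98% in any cluster of either mouse, and the remainder was Prkar1a, with 88.96, 27.5 and 6.53% in clusters 4 to 6. In clusters 1 and 2 the Prkar2a level was 2.12 to 3.06% of its highest, beside 1.57 to 3.23% for Prm1. How much of the Prkar2a share in these 2 clusters was free RNA was not tested.

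Along the ordering the exchange took place within a few bins. In bin 13 Prkar2a held 5.43% in mouse 1 and 5.13% in mouse 2, in bin 14 8.17% and 15.6%, in bin 15 35.3% and 31.1%, in bin 16 70.6% and 78.7%, and in bin 17 88.3% and 89.4%. Bins 15 and 16 held 55 and 2 cells of cluster 4, 71 and 121 cells of cluster 5, and 4 cells of cluster 6 in bin 16. Most cells of cluster 5 had UMIs of both subunits, 79.8% in mouse 1 and 79.7% in mouse 2. In cluster 3 most had Prkar1a alone (78.0% and 67.6%), and in cluster 6 most had Prkar2a alone (68.4% and 55.5%). Prkar1a UMIs were also found in 4 of 5 Leydig-like, 6 of 7 Sertoli-like and 8 of 8 spermatogonium-like cells, at 205 CPM over the 20 cells outside the large clusters, against 104 CPM in cluster 5. After thinning, 40.1% of cluster 5 cells and 2 of 5 Leydig-like cells (40.0%) had one. The 20 cells may hold Prkar1a RNA of their own, so their UMIs do not gauge free RNA. How much of the Prkar1a in cluster 5 was free RNA was not tested, so the cluster 5 cells with UMIs of both were not read as expressing both. Detection of both in a cell is a statement on transcripts and depends on depth, whose medians were 18924.5, 22484.5 and 11632 UMIs in clusters 3, 5 and 6.

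**Figure D2:**
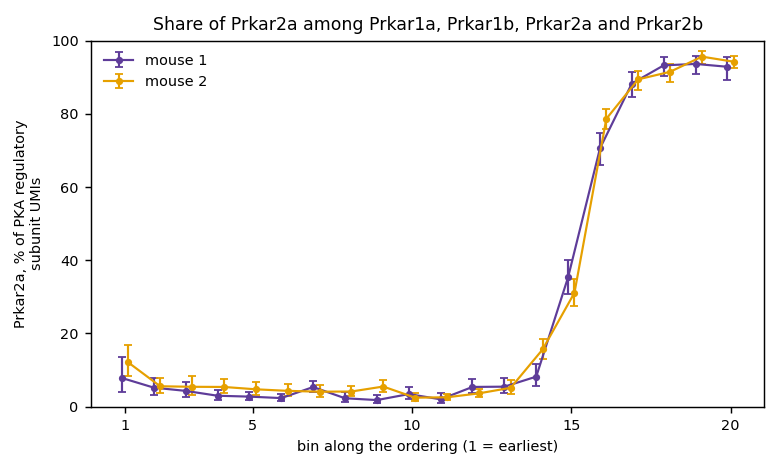
Share of Prkar2a in percent of the UMIs of the 4 PKA regulatory subunit genes (vertical axis) over the 20 bins of the ordering (horizontal axis), as points with exact 95% binomial intervals, 1 line per mouse. The share stayed at or below 15.6% in bins 1 to 14 and was 88.3% or more in bins 17 to 20 in both mice.

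The largest number of members changed at the step into cluster 5. Of the 10 genes, 5 were called higher and 2 lower in cluster 2 than in cluster 1, beside 25.9% and 24.6% of the 14096 rows tested. In cluster 3 against cluster 2, 8 were called higher and 0 lower, beside 31.9% and 31.7% of rows. Only Ropn1l and Prkaca were not called there, Prkaca being called with the block. In cluster 4 against cluster 3, 6 were called higher and 1 lower (2 with the block), beside 26.1% and 20.8%. In cluster 5 against cluster 4 all 10 were called, 6 higher and 4 lower, beside 23.7% and 21.8%. In cluster 6 against cluster 5, 3 were called higher and 4 lower, beside 16.3% and 23.3%.

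The step into cluster 5 thus parted the group. Akap3, Akap4, Ropn1, Ropn1l, Spa17 and Prkar2a were called higher, and Fsip1, Fsip2, Prkaca and Prkar1a lower; the call on Ropn1l was lost with library totals and without the filter on low counts. The median log2 fold change of the members was 0.25, 0.86, 0.45, 0.73 and -0.02 over the 5 steps, against 0.01, -0.04, -0.06, -0.06 and -0.01 for all rows tested. All 10 genes had enough UMIs to be tested at every step. The clusters were formed from other genes of the same cells. Each p-value rests on the spread between the sums of 2 animals, pooled over the large clusters and moderated by the spread of other genes. Except in the fit with the block, sums of the same animal were treated as independent.

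**Figure D3:**
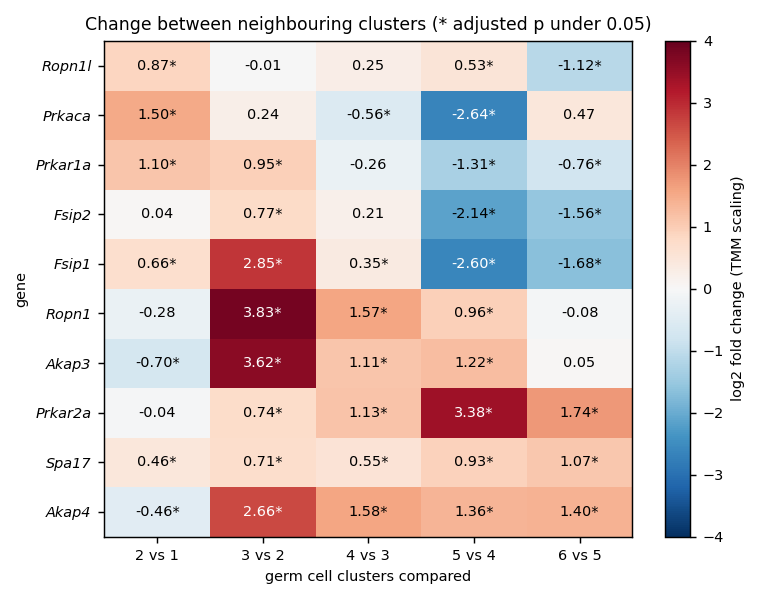
Log2 fold change under TMM scaling (colour and printed value) of each gene (rows) in each cluster against the one before it (columns), with an asterisk where the adjusted p was under 0.05 in edgeR's quasi-likelihood test. The genes are ordered by the bin of their highest level; with library totals the sign turns for Fsip2 in the columns 2 vs 1 and 4 vs 3 (-0.23 and -0.044), Ropn1l in 4 vs 3 (-0.0044), and Akap3 and Prkaca in the last (-0.54 and -0.12).

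The genes reached their highest CPM at different places along the ordering. The mean of both mice was highest in bin 5 for Ropn1l, bin 8 for Prkaca, bin 10 for Prkar1a, bin 11 for Fsip2, bin 12 for Fsip1, bin 16 for Ropn1, bin 17 for Akap3, bin 19 for Prkar2a and Spa17, and bin 20 for Akap4. The bin was the same in both mice for Akap4, Fsip1, Ropn1, Prkaca, Prkar1a and Prkar2a, and differed by 1 bin for the other genes. Several neighbours in this order were therefore not separated. Fsip2 was highest in bin 11 of mouse 1 and bin 12 of mouse 2, the bin of Fsip1, and Akap3 was highest in bin 16 of mouse 1, the bin of Ropn1. Ropn1l lay between 3041 and 3479 CPM from bin 3 to bin 16 in both mice, so its highest bin stands out little. The mean level at the highest bin and at the lowest was 2163 and 40.6 CPM for Akap4, 1036 and 24.0 CPM for Akap3, 665 and 11.4 CPM for Prkar2a and 471 and 7.38 CPM for Fsip1. For Spa17 these values were 4094 and 943 CPM.

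Prkar2a also varied between the animals. Its level was higher in mouse 2 in all 6 clusters, though with overlapping intervals in clusters 1 and 3, with a ratio of mouse 2 to mouse 1 of 1.51 in cluster 5 and 1.91 in cluster 6. In cluster 6 the exact 95% Poisson intervals were 377 to 420 CPM in mouse 1 and 730 to 793 CPM in mouse 2, and did not overlap. Of the 4601 and 3744 genes compared in these clusters, 3.89% and 1.255% were as far apart. In clusters 1 and 2 Prkar2a had only 2.12 to 3.06% of its highest level, beside 1.57 to 3.23% for Prm1, the gauge of free RNA. How much of the difference between the mice in those early clusters was free RNA was not tested. Prkar1a had a ratio of 1.74 in cluster 6, on 101 and 153 UMIs, where 2.14% of genes were as far apart. Akap3 had a ratio of 0.511 in cluster 1, on 82 and 95 UMIs. For Akap4, Spa17, Ropn1 and Ropn1l the ratios lay between 0.926 and 1.19 in clusters 2 to 6. These are comparisons of 1 animal with 1 animal, in which animal and library cannot be told apart, and they carry no test.

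For each member, the 2 genes with the most similar course over the 40 points are given, among 7886 genes. Akap4 was most like Fam71e1 (r = 0.997) and 2610318N02Rik (0.996). Akap3 was most like Cylc1 (0.988), which encodes a cylicin of the perinuclear theca, and Hils1 (0.985), a linker histone-like gene of spermatids. Ropn1 was most like 1700012B07Rik (0.997) and Cylc2 (0.996), the other cylicin gene. Cylicins lie in the sperm head, so genes with these courses were not limited to the tail. Spa17 was most like Tmem53 (0.988) and Dbil5 (0.984), and Prkar2a was most like Lrrc57 (0.993) and 1700012A03Rik (0.991).

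Among the genes of the early and middle part of the ordering, Fsip1 was most like Armc4 (0.978), whose protein docks the outer dynein arms, and RP24-462C5.2 (0.977). Fsip2 was most like Ift43 (0.993), an intraflagellar transport gene, and Uqcrfs1 (0.988), a subunit of respiratory complex III. Prkar1a was most like Iqub (0.984) and Ribc2 (0.981), Prkaca was most like 1700018F24Rik (0.983) and Amn1 (0.980), and Ropn1l was most like Rpl22l1 (0.973) and Dkkl1 (0.971). Among the members themselves, Fsip2 had r = 0.954 with Prkar1a and -0.935 with Prkar2a. All of these values are descriptions over points that share their libraries.

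The other genes of the pathway were called in both directions, at counts that have to be read against the shares of all rows called. These were, higher and lower, 25.9% and 24.6% into cluster 2, 31.9% and 31.7% into cluster 3, 26.1% and 20.8% into cluster 4, 23.7% and 21.8% into cluster 5, and 16.3% and 23.3% into cluster 6, and counts such as 3 of 11, 1 of 5 or 2 of 9 genes lie near them. Of 13 other AKAP genes 11 could be tested, with 4 higher and 4 lower in cluster 2, 8 and 2 in cluster 3, 6 and 3 in cluster 4, 3 and 3 in cluster 5, and 3 and 4 in cluster 6, each against the cluster before. Their median log2 fold change was within rounding of 0 at the first step and 1.24, 0.51, -0.0040 and -0.89 at the others. The median of the first step was the value of Akap2, which had no usable SE there, so it does not describe the list. With library totals the counts were 4 and 5, 8 and 2, 5 and 4, 2 and 4, and 2 and 5. The shares of all rows given above are those under TMM. With library totals 20.5, 30.9, 22.1, 17.2 and 6.01% of all rows were called higher over the 5 steps. Called lower were 31.3, 34.5, 33.5, 40.3 and 36.1%. Akap12, a scaffold of PKA and protein kinase C, rose at all 5 steps under TMM (log2 fold change 0.79 to 1.19, edgeR, adjusted p at most 0.000106) and went from 122 and 90.0 CPM in cluster 1 to 826 and 1043 CPM in cluster 6. Akap1, which anchors PKA at the outer mitochondrial membrane, had 12.8 and 14.2 CPM in cluster 2 and 505 and 597 CPM in cluster 6, with rises at the last 4 steps (edgeR, adjusted p at most 1.59e-07). Akap10 rose up to cluster 5, where it had 145 and 160 CPM, though the step into cluster 5 was not called with library totals (0.17, edgeR, adjusted p = 0.260), and fell to 49.2 and 60.9 CPM in cluster 6 (edgeR, adjusted p = 4.25e-05).

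Of the 6 other PKA subunit and PKA inhibitor genes, 5 could be tested, with 1 higher and 2 lower, 3 and 0, 1 and 1, 1 and 0, and 2 and 0 over the 5 steps, at medians of -0.43, 0.84, -0.14, -0.12 and 0.70. With library totals these were 0 and 3, 3 and 0, 1 and 1, 1 and 1, and 1 and 0. Only the 3 higher in cluster 3 and, with library totals, the 3 lower in cluster 2 were more than 2 of 5 genes. Of all rows, 31.9% were higher in cluster 3 under TMM and 30.9% with library totals. With library totals 31.3% of all rows were lower in cluster 2. The other counts are beside the shares of all rows given for the AKAP genes under the same scaling. Pkib, which encodes a PKA inhibitor peptide, had 21.2 and 19.1 CPM in cluster 2 and 1114 and 992 CPM in cluster 6, and it rose at each of these 4 steps (log2 fold change 1.08 to 2.83, edgeR, adjusted p at most 5.66e-05). Pkig, another inhibitor, had between 135 and 326 CPM in all clusters. Prkar2b had at most 11.4 CPM.

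Of the 9 other sheath and sheath-bound genes, 4 were higher and 1 lower, 5 and 2, 4 and 1, 3 and 1, and 6 and 2 over the 5 steps, at medians of 0.08, 1.47, 0.37, 0.38 and 1.01. Beside the same shares of all rows, the 6 of 9 higher in cluster 6 stood farthest above theirs, 16.3%, and the 3 of 9 higher in cluster 5 were nearer to theirs, 23.7%. With library totals the counts were 3 and 3, 5 and 3, 4 and 1, 1 and 1, and 4 and 3. At the last step 6.01% of all rows were higher and 36.1% lower with library totals. Gapdhs, the sperm form of glyceraldehyde-3-phosphate dehydrogenase bound to the sheath, had 76.5 and 85.0 CPM in cluster 2 and rose to 2148 and 3138 CPM in cluster 6 (last step 1.70 ± 0.18, log2, edgeR, adjusted p = 8.19e-08). Tcp11, a testis gene whose product acts in sperm cyclic AMP signalling, had 935 and 1116 CPM in cluster 1 and 3075 and 3732 CPM in cluster 6. Ldhc, the lactate dehydrogenase of germ cells, had 9625 and 10040 CPM in cluster 2 and 4637 and 4887 CPM in cluster 6. Its direction after cluster 2 depended on scaling. The steps into clusters 3 to 6 were -0.26, 0.10, 0.39 and 0.14 under TMM, none of them called (edgeR, adjusted p from 0.0566 to 0.651), which puts its highest level in cluster 6, and -0.32, -0.15, -0.13 and -0.45 with library totals, the first and last of them called (edgeR, adjusted p = 0.0338 and 0.00642).

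Of the 10 genes of cyclic AMP synthesis and breakdown, 9 could be tested, with 5 higher and 0 lower, 4 and 4, 4 and 3, 1 and 4, and 1 and 4 over the 5 steps, at medians of 0.96, 0.56, 0.22, -0.50 and -1.08. The 1 of 9 higher at each of the last 2 steps was below the share of all rows, 23.7% and 16.3%, and the 4 of 9 lower was above it, 21.8% and 23.3%. With library totals the counts were 4 and 0, 4 and 4, 2 and 3, 1 and 6, and 0 and 5. At the last 2 steps the shares of all rows with library totals were 17.2% and 6.01% higher, and 40.3% and 36.1% lower. The phosphodiesterase genes differed among themselves. Pde1c and Pde8a were highest in cluster 2, at 262 and 241 CPM and 280 and 285 CPM, and had 14.1 and 12.2 CPM and 12.1 and 14.2 CPM in cluster 6. Pde1a had 388 and 389 CPM in cluster 4, 311 and 324 CPM in cluster 5 and 308 and 320 CPM in cluster 6. Its direction after cluster 4 also depended on scaling, with 0.23 and 0.57 into clusters 5 and 6 under TMM, the second called higher (edgeR, adjusted p = 0.00163), and -0.29 and -0.02 with library totals, the first called lower (edgeR, adjusted p = 0.0413). Pde1c and Pde8a were called at all 5 steps under either scaling. Pde1a was called at 4 under TMM, not at the step into cluster 5 (edgeR, adjusted p = 0.178).

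**Figure D4:**
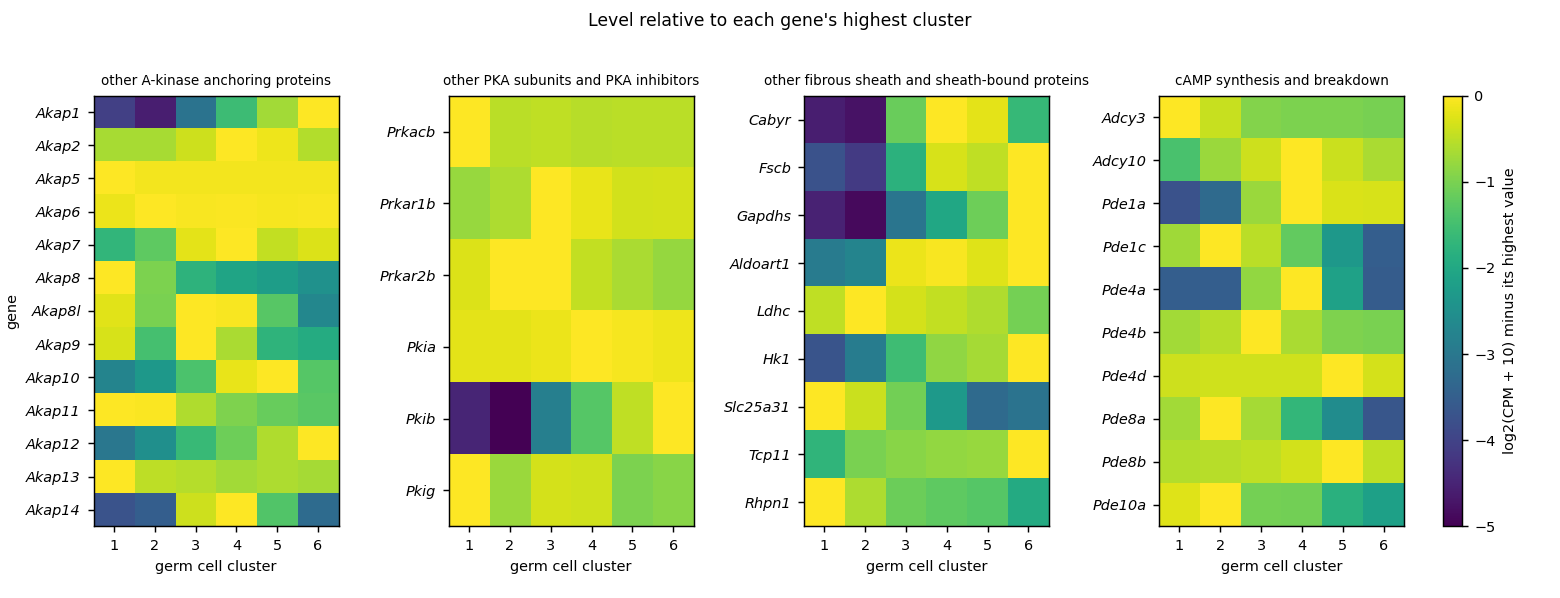
Levels of the other pathway genes, with 1 panel per list, as log2(CPM + 10) minus the gene's highest cluster value (colour) in germ cell clusters 1 to 6 (horizontal axis), mean of both mice. Akap1, Akap12, Pkib and Gapdhs are highest in cluster 6, and Pde1c and Pde8a in cluster 2.

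RefSeq start windows of 9 members were searched for 3 motifs; the table had none for Fsip1. Both strands were searched for TGACGTCA, the full cyclic AMP response element, for its part TGACG, which the full element contains, and for CCAAT. TGACGTCA was in windows of Prkar1a alone, 1 of 9 genes, beside 2.03% of 27025 genes. TGACG was in 4 of 9 genes (Fsip2, Prkaca, Prkar1a and Prkar2a), beside 23.0% of genes. CCAAT was in 5 of 9 (Akap3, Akap4, Fsip2, Prkaca and Prkar1a), beside 41.1%. A gene counted if any of its windows held the motif, and the 9 genes had 17 windows. By window, CCAAT was in 5 of 17, beside 37.4% of 32851 windows, and TGACG in 6 of 17, beside 20.8%. TGACGTCA was in 2 of 17, beside 1.79%, both overlapping windows of Prkar1a. These are matches of letters in windows of 300 bases and not sites of binding.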

How the data were processed

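Testes of 2 mice were measured by droplet single-cell RNA sequencing (Chromium 3' kit, version 2), with 1 library per mouse. Per the labels and the study's methods, the authors demultiplexed with bcl2fastq 2.17.1.14, counted with Cell Ranger 2.0.0 against mm10 with the Ensembl release 89 annotation and RepBase 17.04 sequences, and combined the libraries after downsampling the deeper one to equal reads per cell. The deposited values are whole UMI counts per row and cell, not normalized. The ending of each barcode gave the mouse. All 51868 rows and 2552 cells were kept, including 25 cells called as doublets by scrublet. The total was 27450497 and 30302332 UMIs, and exact intervals cover counting error only. The authors' cell type table was not used here.

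K-means (K = 9, 10 restarts, seed 42) was run on 10 principal components of 27644 rows, leaving out the members, the pathway genes and the cell type markers. A large cluster was named where its markers were at least 1.5 times the level of all cells. Small clusters were named by the marker list with the highest median log2 ratio to all cells. For the spermatogonium-like cells this was 2.39, against 1.79 for the early spermatocyte list. Diffusion pseudotime (15 neighbours) ordered the germ cells into 20 bins. UMIs were summed per mouse and cluster, for clusters with at least 50 cells per mouse, and neighbouring clusters were tested with edgeR's quasi-likelihood test in 1 fit (TMM, filterByExpr, Benjamini-Hochberg over 14096 rows, called under 0.05). The procedure was also run on simulated sums. These were drawn independently with no effect of the animal, so they do not bear on sums that share an animal. Sums of 1 mouse come from the same animal, and their deviations from the cluster means had correlations of 0.029 to 0.229 (median 0.095), so the mouse was also fitted as a block.

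Named genes are all members, for each member the 2 genes with the highest correlation (at least 500 UMIs, no repeats), and the 3 genes of each pathway list with the most UMIs. The members and lists were chosen with earlier results of these data known. Alternatives were other size factors, DESeq2, no filter, the block, each mouse alone, thinning to 5000 UMIs, no doublets, another seed (7), totals without protamines and transition proteins, UMIs per cell, 10 bins, 20 components and, added after seeing the data, library totals. Positions and start windows came from GENCODE M21 and RefSeq (GRCm38.p6). Tools were scanpy 1.11.5 and scikit-learn 1.9.0 on Python 3.11.15 with pandas 2.3.3, numpy 2.4.6, scipy 1.17.1 and matplotlib 3.10.9, and edgeR 4.0.16 and DESeq2 1.42.0 on R 4.3.3.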

Additional observations from a re-analysis of the deposited data

How the results depend on the processing

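Of 550 alternative values for the 50 fold changes of members, 495 counted as the same, 20 lost the call, 11 gained it, 21 turned their sign and 3 moved. Where a test was run, the same means that direction and side of the threshold were kept. Values of each mouse alone carry no test. They counted as the same within the SD of the 2 single-mouse values, and as moved beyond it. With 2 mice this outcome is nearly fixed in advance, so those values say little about how firm the fold changes are. None of those that turned was called under TMM. The replicate block added the calls on Prkaca (cluster 3 against 2) and Prkar1a (cluster 4 against 3), making 2 members lower in cluster 4, and changed no other call of a member. Another seed of the clustering changed none of 20 counts. The causes of the changes below were not tested.

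In cluster 2 against 1, members called higher were 3 with other size factors, DESeq2 or library totals, and members called lower were 1 without the filter, 4 with DESeq2, and 0 after thinning and without doublets. Beside the 3 higher with library totals, 20.5% of all rows were called higher. The shares of all rows under the other settings are not given here, so those counts are not read as a result about the members. With library totals 2 members were lower in cluster 4 than in 3, beside 33.5% of all rows. Thinning gave 2174 rows lower in cluster 2, 2658 higher and 2534 lower in cluster 3, 2355 higher in cluster 4, 2065 higher and 1764 lower in cluster 5, and 1876 lower in cluster 6. Library totals gave 4728 rows lower in cluster 4, 5682 lower in cluster 5, and 847 higher and 5083 lower in cluster 6; without the filter 5302 rows were lower in cluster 5.

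Signs that turned were those of Fsip2 in cluster 2 (-0.27 with other size factors and with DESeq2, -0.23 with totals), Ropn1 in cluster 2 (0.31 thinned, 0.16 without doublets), Prkar2a in cluster 2 (0.17 without filter, 0.068 with the replicate block, 0.19 without doublets), Ropn1l in cluster 3 (0.064 with other size factors and with DESeq2, 0.0072 without filter, 0.011 thinned, 0.015 without doublets), Ropn1 in cluster 6 (0.14 with other size factors and with DESeq2, 0.041 without filter, 0.053 thinned), and with totals Fsip2 (-0.044) and Ropn1l (-0.0044) in cluster 4 and Akap3 (-0.54) and Prkaca (-0.12) in cluster 6.

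In UMIs per cell the highest cluster was 5 for Akap4 and Spa17, 4 for Fsip2 and 2 for Prkaca; without protamines it was 5 for Ropn1l, and with each mouse alone it was 3 to 4 for Fsip2. With 20 components the highest bin was 16 for Akap3, 20 for Spa17 and Prkar2a and 6 for Prkaca. With each mouse alone it was 16 to 17 for Akap3, 11 to 12 for Fsip2, 5 to 6 for Ropn1l and 18 to 19 for Spa17. Thinned, the Prkar2a share in cluster 6 was 93.4%.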
